A study of Mus musculus with 18 samples.

Results

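The comparison described here is fish/fungal oil against canola oil in mouse livers that lack cytochrome P450 reductase. It rests on the 3 arrays whose titles name fish/fungal-fed knockout livers and the 3 whose titles name canola-fed knockout livers, 6 of the 18 arrays of the series. Each array was hybridised with RNA pooled from 3 mice, so that a group stands for 9 mice. The knockout mice were males of genotype Alb-Cre+/-/POR-lox+/+, called LivPORKO. In them Cre from the albumin promoter, active in hepatocytes, deletes floxed Por. Which cells of the liver keep the gene was not measured. Control males (Alb-Cre-/-/POR-lox+/+) carry the same floxed alleles without Cre, and 6 of their pools on the same oils were used for comparison. All mice were 12 weeks old, had eaten the diet for 8 weeks from weaning at 4 weeks and were fasted for 4 h. The diets shared a synthetic base with added cholesterol and sodium cholate and differed in their fat, which was canola oil or a mixture of 3.27% ARASCO and 2.73% menhaden oil. The fat content is given as 6% in the series text and as 7% in the sample labels. A lard diet completed the design in both genotypes.

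Canola oil is rich in monounsaturated fat and supplies short precursors of the long-chain polyunsaturated fatty acids. ARASCO, a fungal oil rich in arachidonic acid, and menhaden oil, a fish oil rich in eicosapentaenoic and docosahexaenoic acids, supply the long-chain end products themselves. Liver makes these products from the precursors by alternating desaturation, by Fads2 and Fads1, with elongation, by Elovl5 and Elovl2, and long-chain polyunsaturated fatty acids are known to lower expression of this pathway and of fatty acid and cholesterol synthesis through sterol regulatory element-binding proteins. P450 reductase passes electrons to all microsomal P450s, among them the sterol-synthesis enzyme Cyp51, and to squalene epoxidase. Its loss in hepatocytes is known to induce drug-metabolising P450s and to cause fat storage.

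Levels below are the deposited log2 expression values, and a log2 change is the mean of the fish/fungal pools minus the mean of the canola pools with its standard error (SE, n = 3 pools a group). A gene was called when its adjusted p in limma, over 12578 genes tested, was below 0.05. Separate pools of mice are the replicates, and 3 a group limit the precision of every value. No probe set is named for Por, so the deletion was not checked on its own target. Hepatocyte markers were at the top of the scale in every pool (mean log2 level of 8 markers 13.34 to 13.61 in the 6 knockout pools; Alb 14.62 to 14.68), as the tissue label says.

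The third canola knockout pool stood apart from the others of its group. Among the 279 genes that differed between knockout and control livers on the lard and fish/fungal diets, a set chosen without any canola array, pools 1 and 2 lay nearer to the knockout mean in 207 and 236 genes and pool 3 in 95. The control canola pools lay nearer to the knockout mean in 41, 63 and 26 genes. On a scale from the control mean (0%) to the knockout mean (100%), the median gene of pool 3 was at 34.0%, against 83.5% and 91.6% for pools 1 and 2. The P450 gene Cyp2b10, strongly raised in knockout livers, was at log2 levels of 11.08, 10.57 and 8.14 in the canola knockout pools and at 5.44 to 6.02 in the canola control pools. Nebl, a muscle-type actin-binding protein, was at 6.12, 5.94 and 4.45 in the canola knockout pools, and at 3.69 to 4.14 in the canola controls. Pool 3 and the controls were in Nebl below the median of all probe sets on the array (5.23 to 5.29), so that their distance there is not exact. Over the 279 genes and in Cyp2b10 pool 3 was thus intermediate. What it held was not tested, and the main results below are given with and without it.

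**Figure D1:**
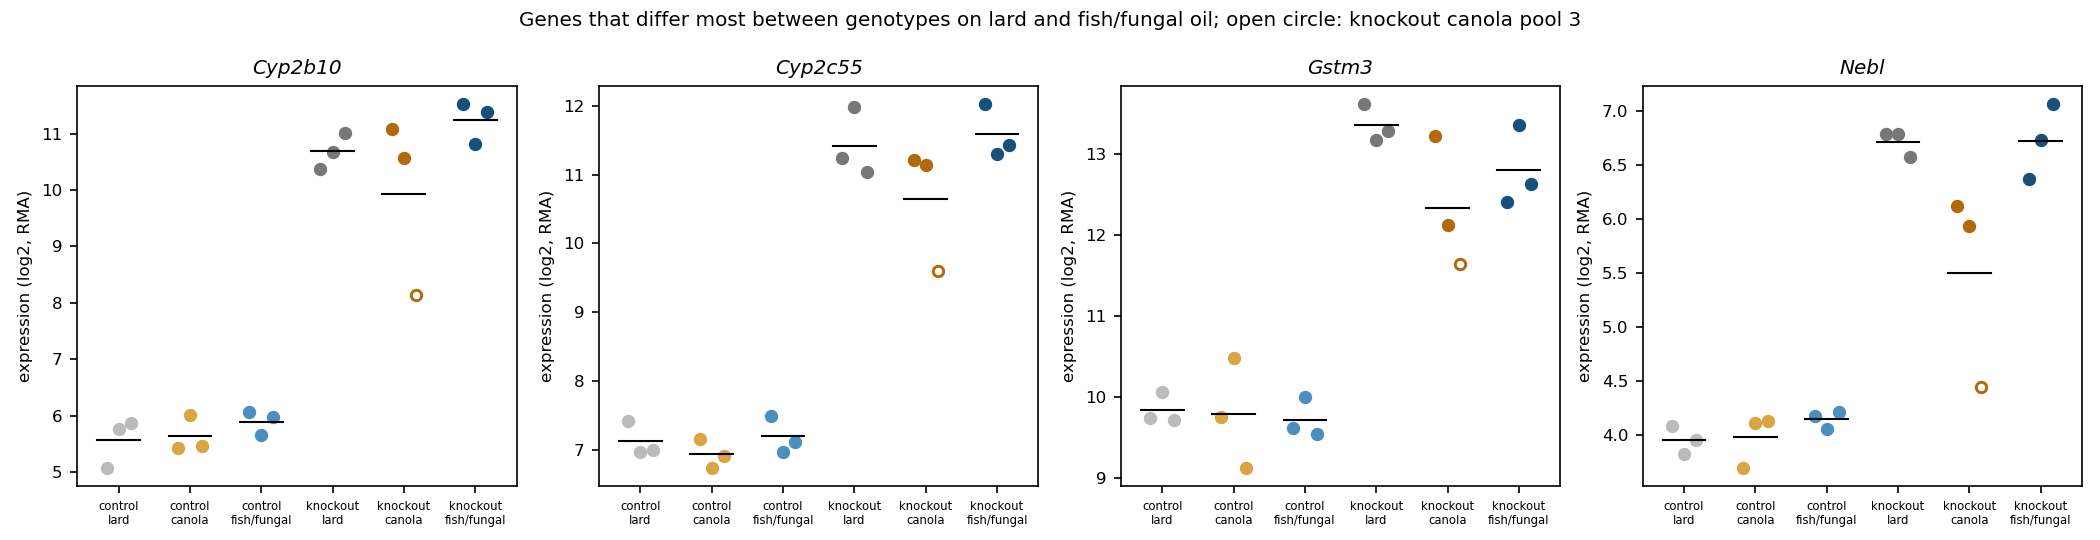
Log2 expression of Cyp2b10, Cyp2c55, Gstm3 and Nebl in each of the 18 pools by group (points; bars are means of 3 pools); the open circle is canola knockout pool 3. In Cyp2b10 that pool was at 8.14, between the control canola pools (at most 6.02) and the other canola knockout pools (at least 10.57).

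In knockout livers, 4 genes that make long-chain polyunsaturated fatty acids, the lysolipid transporter Mfsd2a and the apolipoproteins Apoa4 and Apoc2 were lower on fish/fungal oil than on canola oil, and lipoprotein lipase (Lpl) was higher. With all 6 pools 20 genes were called (0.159% of those tested), 16 lower (0.127%) and 4 higher (0.0318%). The 3 pools of each oil did not overlap in any of the 20 (all genes, 4.78% lower and 4.67% higher). Selection by a small p on the same arrays favours this, so it adds no support to the calls. The change was at least 2-fold in 9 of the 20, 8 lower and 1 higher. At an unadjusted p below 0.05 there were 745 genes, or 533 without canola pool 3, where 629 would be expected by chance. Without canola pool 3, 5 genes were called (0.0398%): Fads1, Apoa4, Mfsd2a and Apoc2 lower (0.0318%) and Lpl higher (0.00795%). No gene was called only in its absence. The log2 changes of the 15 genes that were no longer called were 0.868 to 1.12 times those with the pool, their adjusted p was 0.0599 to 0.349, and the median SE was 1.14 times as large. The same 5 genes were called whichever of the 6 pools was left out, while the total was 7 without canola pool 1, 20 without canola pool 2, 8, 30 and 6 without fish/fungal pools 1, 2 and 3. The called gene nearest the threshold was Pter (adjusted p = 0.0481, limma), and the nearest gene beyond it was Pgm3 (0.0600).

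**Figure D2:**
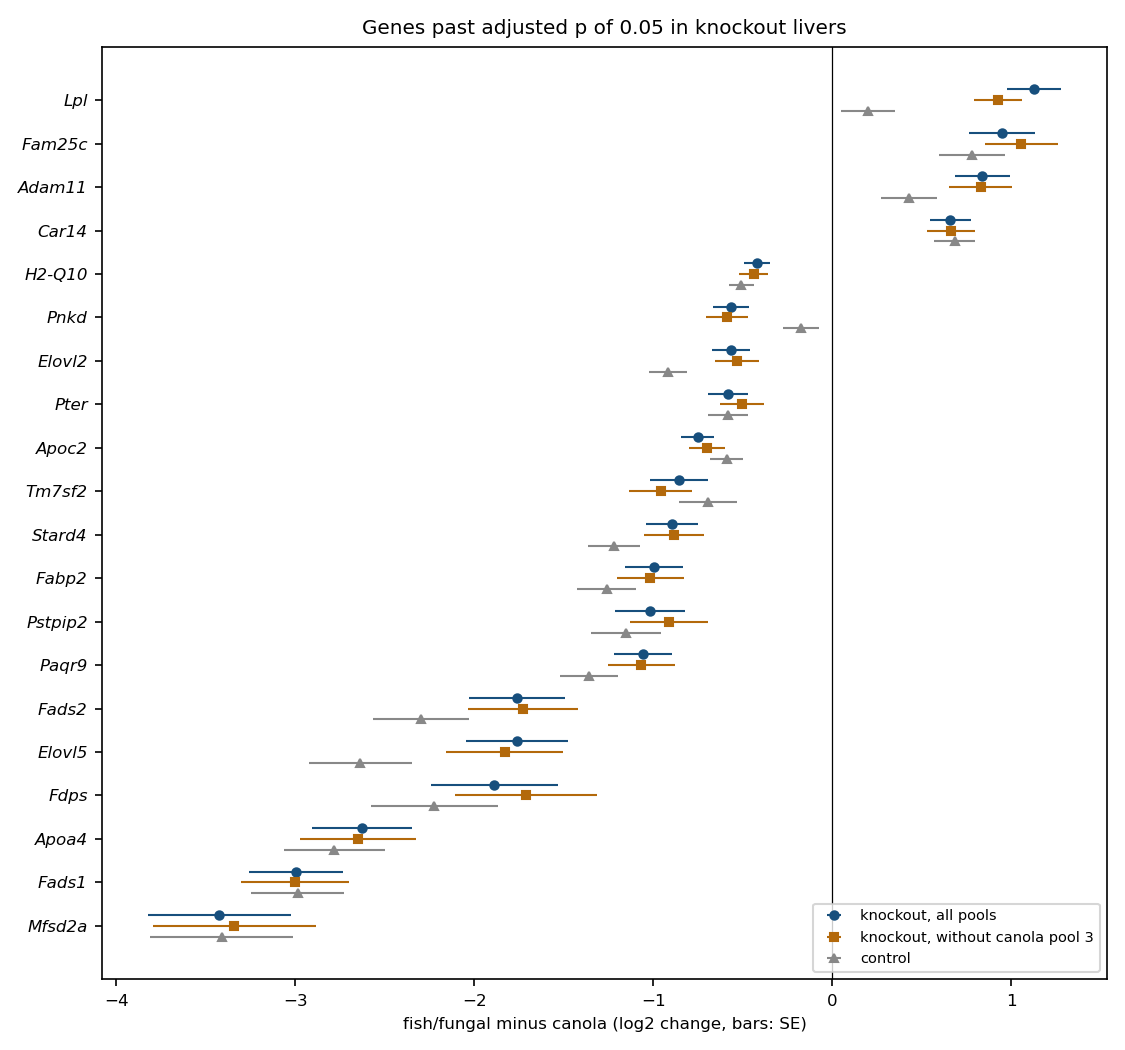
Log2 change, fish/fungal minus canola, with its SE for the 20 genes called in knockout livers, in the knockout with all pools (circles), in the knockout without canola pool 3 (squares) and in controls (triangles). The values with and without pool 3 lie close together for each gene; Lpl is at 1.13 and 0.93 in the knockout and at 0.20 in controls.

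The 4 called desaturases and elongases act in the polyunsaturated pathway itself. Of 14 tested members of the list of desaturation and elongation genes, 4 were called lower and none higher (all genes, 0.127% and 0.0318%). Pools did not overlap in 6 lower members and 1 higher member, against 4.78% and 4.67% of all genes. The median change of the list was -0.14, beside -0.003 over all genes (written here as log2; -0.16 and 0.003 without canola pool 3), so that the change lay in part of the list.

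Fads1, the desaturase that makes arachidonic and eicosapentaenoic acid in the last desaturation before them, had log2 levels of 11.62, 10.84 and 11.21 in canola pools 1 to 3 and of 8.04, 8.90 and 7.74 in the fish/fungal pools. All fish/fungal pools were low, and the gap between the groups was wider than the spread within either. The log2 change was -3.00 (SE 0.26, adjusted p = 2.27e-05, limma), 7.99-fold lower, and was -3.00 (SE 0.30, adjusted p = 0.000318) without canola pool 3. A second, dim Fads1 probe set changed by -0.78.

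Fads2, which introduces the first double bond of the pathway, had log2 levels of 11.28, 10.91 and 11.18 on canola and of 9.25, 9.61 and 9.22 on fish/fungal oil. Its groups were tight and far apart. It fell by 1.76 (SE 0.27, adjusted p = 0.00861), and its other probe sets gave -1.72 and -1.41. Without canola pool 3 the value was -1.73 and its adjusted p was 0.0606. Fads1 and Fads2 lie side by side on chromosome 19 with Fads3, a related gene that was not called (-0.17, adjusted p = 0.912), and Fen1, a DNA repair nuclease beyond Fads1, was at 0.15.

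Elovl5, the elongase that acts between these desaturases, had log2 levels of 13.32, 12.28 and 12.60 on canola and of 10.88, 11.59 and 10.44 on fish/fungal oil. Fish/fungal pool 2 was the highest of its group and still below every canola pool. The change was -1.76 (SE 0.29, adjusted p = 0.0141), and -1.83 (adjusted p = 0.0606) without canola pool 3. Elovl2, which extends the products towards docosahexaenoic acid, was at 12.10, 11.92 and 12.12 on canola and at 11.46, 11.51 and 11.47 on fish/fungal oil. Its change of -0.57 (SE 0.11, adjusted p = 0.0420) was the smallest of the 4, and the value was -0.53 (adjusted p = 0.287) without canola pool 3. Hacd1, a dehydratase of the elongation cycle, was the member with higher pools that did not overlap (0.48, adjusted p = 0.666); without canola pool 3 it was at 0.26.

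Fads1 has no promoter entry in the reference table. The windows of Fads2 and Elovl5, and of Mfsd2a described next, are shown because these genes of polyunsaturated fatty acid synthesis and transport were lower together. Each is the 150 bases before the annotated start in RefSeq, build GRCm38.p6, read 5′ to 3′ along the gene's strand, with capitals marking CCAAT on either strand (ATTGG where it is read from the other strand). Fads2 is on the minus strand at chr19:10101504-10101653, Elovl5 on the plus strand at chr9:77917215-77917364 and Mfsd2a on the minus strand at chr4:122961189-122961338.
Fads2: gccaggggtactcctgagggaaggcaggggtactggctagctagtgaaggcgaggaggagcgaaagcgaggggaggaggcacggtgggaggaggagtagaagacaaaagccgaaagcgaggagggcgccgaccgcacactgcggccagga
Elovl5: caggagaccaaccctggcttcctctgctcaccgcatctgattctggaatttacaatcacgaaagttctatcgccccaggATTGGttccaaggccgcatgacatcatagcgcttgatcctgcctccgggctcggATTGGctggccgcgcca
Mfsd2a: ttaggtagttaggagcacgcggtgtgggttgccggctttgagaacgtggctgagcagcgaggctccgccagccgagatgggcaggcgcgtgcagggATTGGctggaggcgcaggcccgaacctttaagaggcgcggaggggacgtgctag
Elovl5 holds the letters at 2 places, Mfsd2a at 1 and Fads2 at none. Over the whole windows of the table, which reach further upstream and past the start, CCAAT was found in 4 of the 11 called-lower genes with an entry and in 42.3% of all tested genes with one. Neither the sterol element TCACNCCAC nor DR1, 2 copies of AGGTCA with 1 base between them that nuclear receptors bind, was found in any of these 11; over all genes they were in 1.42% and 0.0494%.

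Mfsd2a, which carries docosahexaenoic acid into cells as lysophosphatidylcholine, had the largest change of all called genes. Its log2 levels were 9.38, 8.64 and 9.26 on canola and 5.25, 6.06 and 5.71 on fish/fungal oil. The fish/fungal pools were close to the median of all probe sets on the array (5.23 to 5.29). It fell by 3.42 (SE 0.40, adjusted p = 0.000538, limma), 10.7-fold, and its change without canola pool 3 was -3.34 (adjusted p = 0.00676). It was the only called gene of the 17 tested for phospholipid synthesis and remodelling (all genes, 0.159%), a list whose median was -0.05.

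**Figure D3:**
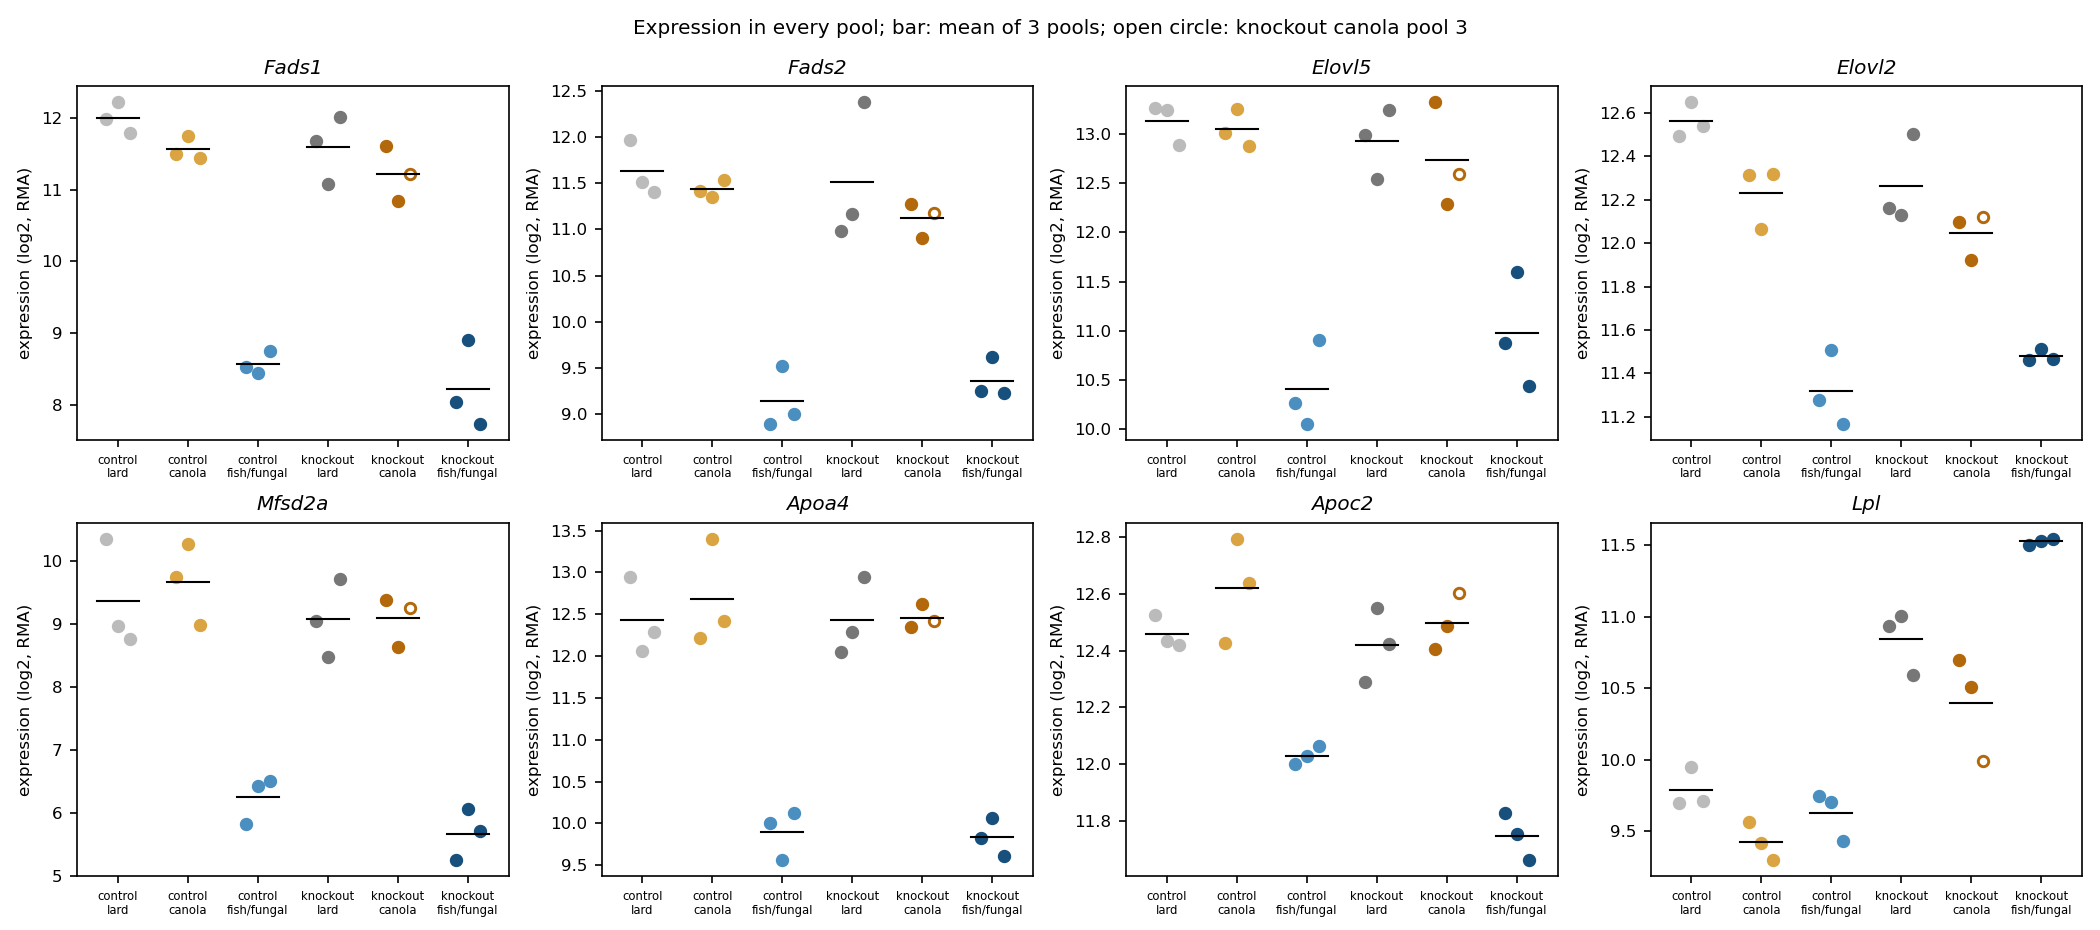
Log2 expression in all 18 pools for Fads1, Fads2, Elovl5, Elovl2, Mfsd2a, Apoa4, Apoc2 and Lpl (points; bars are means of 3 pools; open circle, canola knockout pool 3; each panel has its own axis). In the knockout, the fish/fungal pools lie below every canola pool in the first 7 genes and above in Lpl, where they are at 11.51 to 11.55.

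Among 19 tested apolipoprotein and lipoprotein assembly genes, 2 were called lower and none higher, with or without canola pool 3, and the list median was -0.05. Over all genes 0.127% were called lower, or 0.0318% without that pool. Apoa4, a lipoprotein component whose liver expression follows fat storage and fasting, had log2 levels of 12.35, 12.62 and 12.41 on canola and of 9.82, 10.06 and 9.61 on fish/fungal oil. These groups were far apart with little spread. The change was -2.63 (SE 0.28, adjusted p = 0.000248, limma), 6.18-fold lower, and -2.65 (adjusted p = 0.0024) without canola pool 3. Its neighbours in the same gene cluster, which encode other apolipoproteins, were not called: Apoa1 was at -0.06, Apoc3 at -0.08 and Apoa5 at -0.18.

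Apoc2, the activator of lipoprotein lipase, had log2 levels of 12.41, 12.49 and 12.60 on canola and of 11.83, 11.75 and 11.66 on fish/fungal oil. The change was small but the pools were tight and did not overlap. It was -0.75 (SE 0.09, adjusted p = 0.000543), and -0.70 (adjusted p = 0.00783) without canola pool 3. Apoc4, Apoc1 and Apoe, beside it in the genome, were at -0.10, -0.01 and 0.002.

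Lpl, the lipase that frees fatty acids from circulating triglyceride and that adult hepatocytes normally express little, was at log2 levels of 10.70, 10.51 and 9.99 in the canola pools and at 11.51, 11.53 and 11.55 in the fish/fungal pools. Fish/fungal pools were high and nearly equal, and canola pool 3 was the lowest of the 6. Lpl rose by 1.13 (SE 0.15, adjusted p = 0.00239), 2.19-fold, and by 0.93 (SE 0.13, adjusted p = 0.00841) without that pool. Its second probe set gave 1.23. Lpl is among the 279 genes by which pool 3 was placed, and was 1.48 higher in knockout than control livers on lard and fish/fungal oil. Of the other called genes only Adam11, described below, is among the 279 (0.58 higher). Macrophages express Lpl too. The mean log2 level of 20 Kupffer cell and macrophage markers was 8.37 to 8.72 in the canola and 8.39 to 9.01 in the fish/fungal pools, and their part in the Lpl result was not tested.

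Of 21 tested genes of fat uptake and storage, Lpl was the only one called higher (all genes, 0.0318%). Fabp2, an intracellular fatty acid-binding protein best known from gut, was the only one called lower (all genes, 0.127%). In that list 16 were negative, 4 were lower and 1 higher without overlap (all genes, 4.78% and 4.67%), and the median was -0.19. These values were 16, 5 and 1 (all genes, 8.12% and 9.21%) and -0.22 without canola pool 3. Fabp2 was at log2 levels of 11.80, 11.97 and 11.82 on canola and of 11.14, 10.82 and 10.65 on fish/fungal oil. The pools did not overlap, and the change was -0.997 (SE 0.16, adjusted p = 0.0141), or -1.02 (adjusted p = 0.0652) without canola pool 3. The fatty acid transporter Cd36, named after its value was seen, was at -0.60 (adjusted p = 0.982), or -0.997 without canola pool 3, and its pools overlapped. Plin2, which coats lipid droplets, was at -0.51 (adjusted p = 0.541) with pools that did not overlap.

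Cholesterol and fatty acid synthesis genes were lower in most cases, but few passed the test. In the sterol arm all 11 tested members had negative changes, and the pools did not overlap in 8 of them (all genes, 4.78%). In it 1 was called lower (all genes, 0.127%) and the median was -0.46. Without canola pool 3, 10 were negative and the median was -0.57. Of 8 tested in the mevalonate arm, 5 were negative, 3 were lower without overlap, 1 was called and the median was -0.41 (-0.37 without canola pool 3). Of 21 tested for fatty acid synthesis, 20 were negative, 7 were lower without overlap and the median was -0.66 (20, 7 and -0.59 without canola pool 3). Its single called member, Fdps, is an enzyme of cholesterol synthesis that the list shares with the mevalonate arm. With the desaturation list, the 4 lists hold 53 genes, of which 45 were negative (51.1% of all genes). Of the 53, 6 were called lower and none higher (all genes, 0.127% and 0.0318%). Without overlap 23 were lower and 1 higher (all genes, 4.78% and 4.67%). Without canola pool 3 these numbers were 24 and 2 (all genes, 8.12% and 9.21%), and the median of the 53 was -0.44 instead of -0.46.

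Fdps, which makes farnesyl diphosphate, had log2 levels of 10.06, 8.96 and 10.04 on canola and of 7.29, 8.65 and 7.45 on fish/fungal oil. The lowest canola pool, pool 2, and the highest fish/fungal pool, also numbered 2, were close to each other. The change was -1.89 (SE 0.36, adjusted p = 0.0420, limma), and -1.71 (adjusted p = 0.297) without canola pool 3. Tm7sf2, a sterol reductase of the sterol arm, was at 10.08, 9.93 and 9.69 on canola and at 9.13, 9.33 and 8.68 on fish/fungal oil. Its groups did not overlap. It changed by -0.85 (SE 0.16, adjusted p = 0.0420), and by -0.96 (adjusted p = 0.0652) without canola pool 3.

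Of 15 genes tested for sterol sensing and uptake, 1 was called (all genes, 0.159%), and the list had a median of 0.06. The called gene was Stard4, a carrier of sterols between membranes. It was at log2 levels of 9.49, 9.38 and 9.46 on canola and of 8.40, 8.89 and 8.36 on fish/fungal oil. Only fish/fungal pool 2 came near the canola pools. The change was -0.89 (SE 0.15, adjusted p = 0.0141), its other probe sets gave -1.05 and -1.04, and the value without canola pool 3 was -0.88 (adjusted p = 0.0799).

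Several lipid synthesis genes with large changes did not pass the test, and those named here were chosen after their values were seen. Idi1, an isomerase of the mevalonate arm, had log2 levels of 8.02, 7.46 and 8.07 on canola and of 6.72, 6.69 and 5.6 on fish/fungal oil (-1.51, SE 0.31, adjusted p = 0.0836; -1.40 without canola pool 3). Cyp51, the sterol demethylase that takes electrons from P450 reductase, had 7.52, 6.91 and 7.52 on canola and 6.05, 6.63 and 6.02 on fish/fungal oil (-1.08, SE 0.23, adjusted p = 0.0936; -0.98 without that pool). Fasn, fatty acid synthase, had 10.99, 9.73 and 10.32 on canola and 8.06, 9.26 and 8.00 on fish/fungal oil (-1.90, SE 0.47, adjusted p = 0.247; -1.92 without it). In all 3 the pools did not overlap, yet pools of the same oil differed by more than 1 log2 unit in Fasn and, on fish/fungal oil, in Idi1. Acacb was at -1.60 (adjusted p = 0.298, limma), also without overlap. In Me1 (-1.85, adjusted p = 0.421) the pools overlapped, with canola pool 2 at 9.85 and fish/fungal pool 2 at 10.01. Srebf1, the sterol regulatory element-binding factor of fatty acid synthesis, was at -0.76 (adjusted p = 0.335) and its target Insig1, which holds those factors in the endoplasmic reticulum, at -0.68 (adjusted p = 0.538). They were at -0.59 and -0.82 without canola pool 3.

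**Figure D4:**
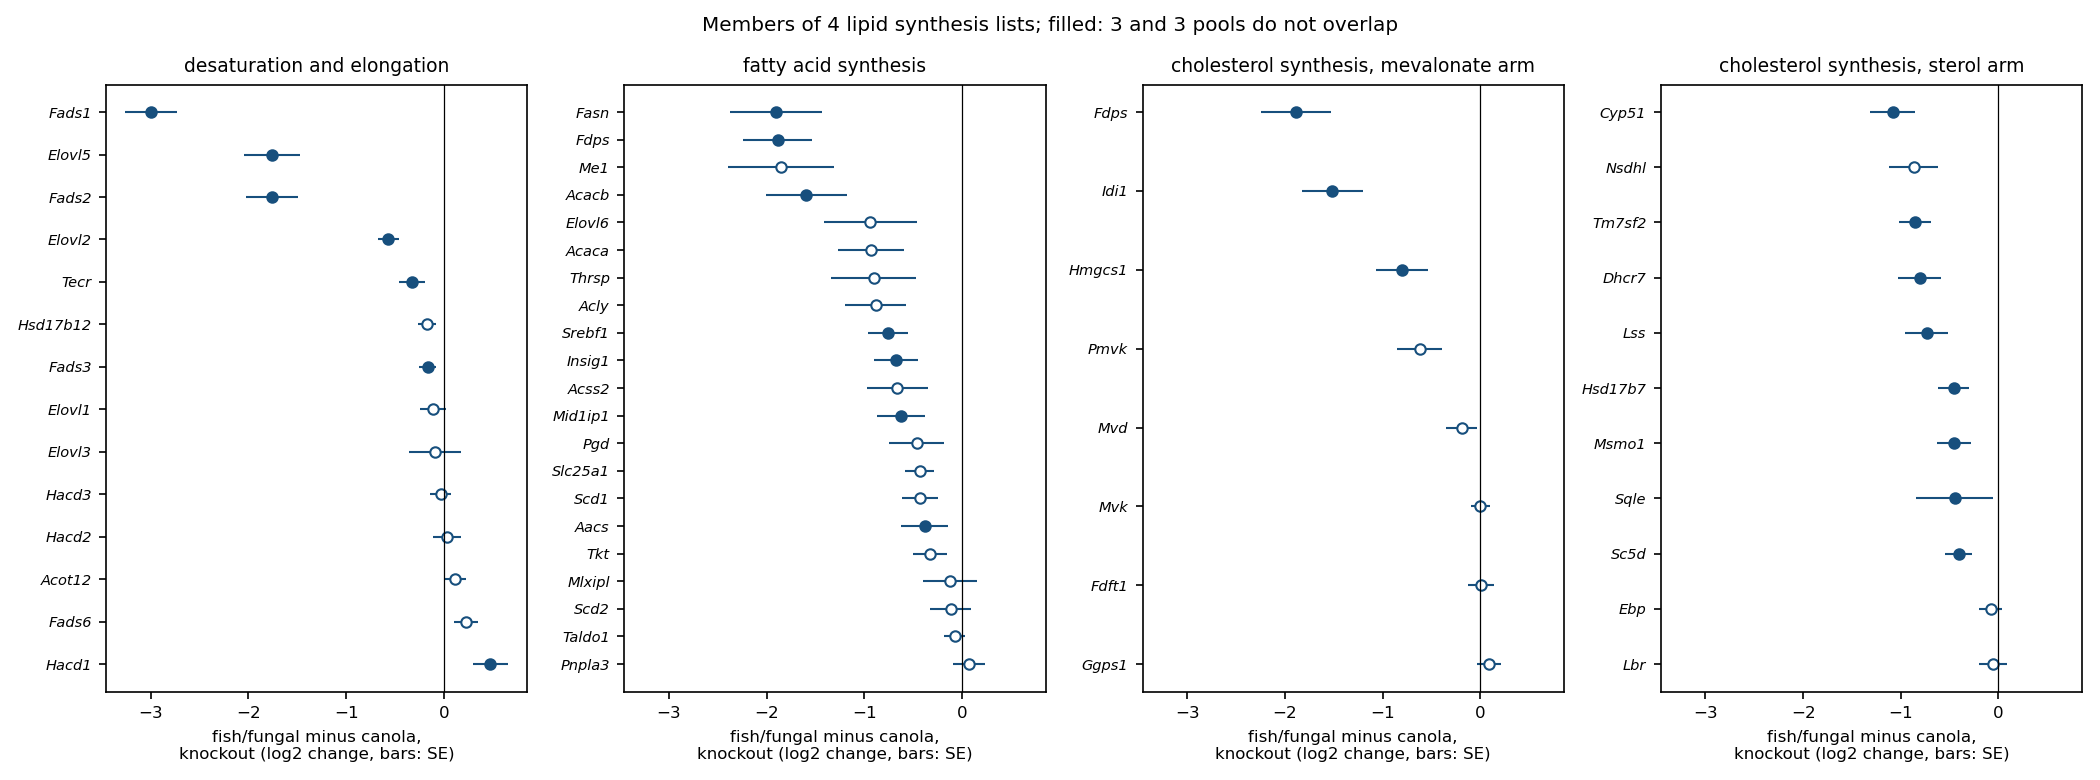
Log2 change, fish/fungal minus canola, in knockout livers with its SE for the tested members of the 4 lipid synthesis lists; filled points are genes whose 3 and 3 pools do not overlap. All 11 genes of the sterol arm lie below 0, and the largest changes are in Fads1 (-3.00), Fasn (-1.90) and Fdps (-1.89).

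The spread within an oil group was shared by these genes. Over the 53 genes fish/fungal pool 2 was the highest of its 3 pools in 40 (75.5%, against 40.4% of all genes), canola pool 2 was the lowest of its 3 in 36 (67.9%, against 33.7%) and canola pool 1 was the highest in 31. The mean log2 level of the fatty acid synthesis list was 10.21, 9.67 and 9.91 in the canola pools and 8.88, 9.65 and 8.99 in the fish/fungal pools. For this list canola pool 2 and fish/fungal pool 2 were therefore almost equal, and canola pool 3 was in the middle of its group. Leaving out fish/fungal pool 2 gave 30 calls, 27 of them lower.

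**Figure D5:**
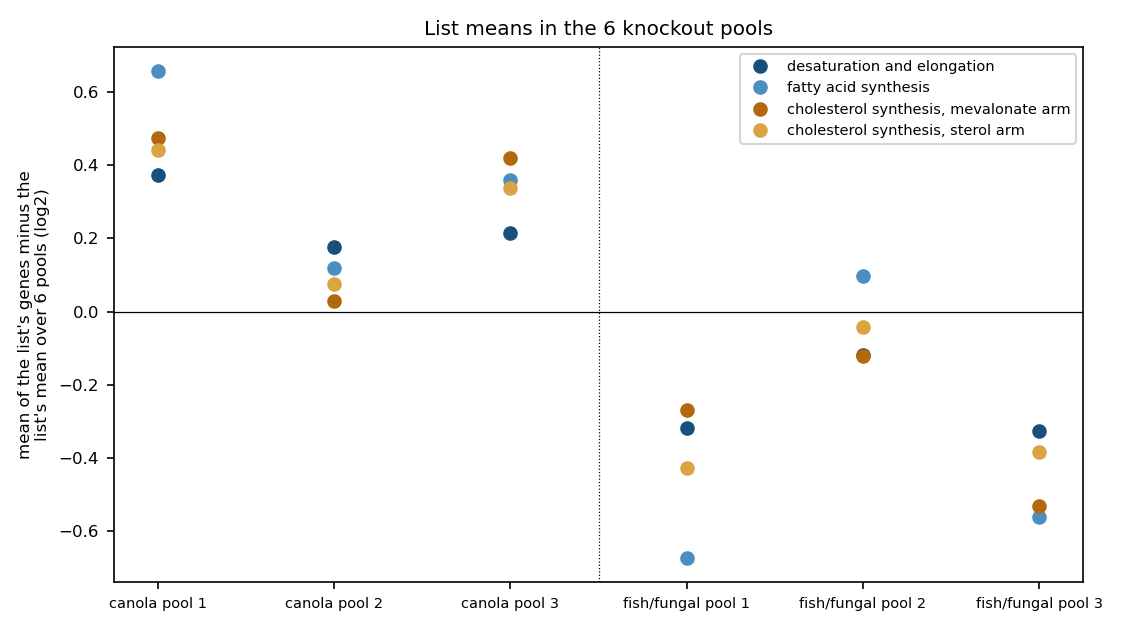
Mean log2 level of each of the 4 lipid synthesis lists in the 6 knockout pools, minus the mean of that list over the 6 pools; each point is 1 list in 1 pool. Canola pools 1 and 3 are highest, fish/fungal pools 1 and 3 lowest, and the pools numbered 2 lie between them, with the fatty acid synthesis list at 9.67 and 9.65 before centring.

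CCAAT letters were found in the promoter windows of all 16 tested cholesterol synthesis genes that have an entry, beside 42.3% of all tested genes with one. The windows of Tm7sf2, Idi1 and Hmgcs1 are shown because these genes span both arms of the pathway and because Hmgcs1, the synthase that opens the mevalonate arm, is the only cholesterol synthesis gene whose window holds TCACNCCAC. Capitals mark both kinds of match, and the build and reading direction are as above. Tm7sf2 is on the minus strand at chr19:6067851-6068000, Idi1 on the plus strand at chr13:8885456-8885605 and Hmgcs1 on the plus strand at chr13:119690201-119690350.
Tm7sf2: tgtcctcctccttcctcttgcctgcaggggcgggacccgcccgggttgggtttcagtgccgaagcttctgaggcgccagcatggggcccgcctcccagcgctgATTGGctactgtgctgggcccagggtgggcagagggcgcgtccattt
Idi1: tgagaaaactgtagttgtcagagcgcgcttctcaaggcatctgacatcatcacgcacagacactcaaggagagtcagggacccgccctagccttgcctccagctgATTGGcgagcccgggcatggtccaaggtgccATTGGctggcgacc
Hmgcs1: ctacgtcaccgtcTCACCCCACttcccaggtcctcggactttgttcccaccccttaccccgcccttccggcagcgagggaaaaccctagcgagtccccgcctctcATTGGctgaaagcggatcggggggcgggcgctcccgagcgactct
The sterol element of Hmgcs1 spans -137 to -129 from the start, and its CCAAT nearest the start in this stretch spans -45 to -41. In Tm7sf2 CCAAT spans -47 to -43. Of these 3 genes Tm7sf2 was called lower, and Hmgcs1 was at -0.80 (adjusted p = 0.538) with pools that did not overlap. Of the 18 fatty acid synthesis genes with an entry, 13 held CCAAT. These are matches of letters only.

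The remaining called genes belong to no single pathway. Paqr9, a membrane protein of the progestin and adipoQ receptor family, was at log2 levels of 10.41, 10.69 and 10.51 on canola and of 9.31, 9.46 and 9.67 on fish/fungal oil, a change of -1.06 (SE 0.16, adjusted p = 0.00861, limma). Pstpip2, a membrane-bending adaptor of myeloid cells, was at 7.55, 7.13 and 7.67 on canola and at 5.94, 6.75 and 6.59 on fish/fungal oil, a change of -1.02 (SE 0.20, adjusted p = 0.0481). Groups did not overlap in either gene, and all 3 Pstpip2 probe sets were lower (-0.89 to -1.05).

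Smaller decreases were seen for Pter, a phosphotriesterase-related enzyme (-0.58), Pnkd (-0.57) and H2-Q10, a liver-secreted class I histocompatibility protein (-0.42, adjusted p = 0.0194; named after its value was seen). The second Pnkd probe set was at -0.04. Class I genes are near-identical, so that probes for H2-Q10 may read relatives. Higher levels were called for Fam25c (0.95, adjusted p = 0.0481), Adam11, a catalytically inactive metalloprotease relative (0.84, adjusted p = 0.0380), and Car14, a membrane carbonic anhydrase (0.66, adjusted p = 0.0265). Car14 was at log2 levels of 9.61, 9.24 and 9.44 on canola and of 10.14, 10.14 and 9.995 on fish/fungal oil. Without canola pool 3 none of these 8 genes was called. The values of those with the largest changes were -1.07 for Paqr9 (adjusted p = 0.0599), -0.91 for Pstpip2 (0.334), 1.06 for Fam25c (0.0840), 0.83 for Adam11 (0.184) and 0.67 for Car14 (0.108). Pter, Pnkd and H2-Q10 were then at -0.51 (0.349), -0.59 (0.0996) and -0.44 (0.0652).

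No member of the fatty acid oxidation and ketone body list, the classical targets of PPARalpha, was called among 36 tested (all genes, 0.159%). At that share, no call is the usual outcome for a list of this size. Of the 36, 27 were negative (51.1% of all genes), 7 were lower and 1 higher without overlap (all genes, 4.78% and 4.67%), and the median was -0.11. Leaving out canola pool 3, 34 were negative (49.0% of all genes), 14 were lower and 1 higher without overlap (all genes, 8.12% and 9.21%), and the median was -0.13. The smallest p-values belonged to Bdh1, a ketone body dehydrogenase (-0.40, adjusted p = 0.401), the lipid droplet protein Plin2 (-0.51, 0.541) and the thiolase Acaa2 (-0.19, 0.912). None of 10 Cyp4 omega-hydroxylases and none of 21 genes of eicosanoid and epoxide metabolism was called (all genes, 0.159%), with medians of 0.05 and 0.01. Among these were Cyp4f15 (0.32), the phospholipase Pla2g4a that releases arachidonic acid (0.49), and the epoxide hydrolase Ephx1 (0.31).

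Bile acid synthesis and drug metabolism genes were not called either (all genes, 0.159%), although some values were large. Cyp7a1, the rate-limiting enzyme of bile acid synthesis, had log2 levels of 8.54, 9.88 and 8.82 on canola and of 10.75, 10.18 and 11.61 on fish/fungal oil. The pools did not overlap but spread widely, and the change of 1.77 (SE 0.57) had an adjusted p of 0.528 in limma (1.64 without canola pool 3). Cyp39a1, an oxysterol hydroxylase, was at 6.09, 5.87 and 7.57 on canola and at 5.76, 5.10 and 4.34 on fish/fungal oil. Its value of -1.44 (adjusted p = 0.401) became -0.92 without canola pool 3, the highest of the 6. The mean of its fish/fungal pools was below the array median, so that this difference rests on signal near background. Cyp2b10 went likewise from 1.31 (adjusted p = 0.650) to 0.42 and Cyp2c55, another P450 raised in knockout livers, from 0.94 (0.619) to 0.41. The largest value of the P450 list was that of Cyp2b9, a female-biased P450, at 8.21, 9.08 and 7.82 on canola and 5.73, 7.94 and 4.80 on fish/fungal oil. Its pools overlapped, and its change was -2.22 (adjusted p = 0.700) in the knockout, -2.49 without canola pool 3, and 0.99 in controls. No gene was called among 33 P450s of families 1 to 3, 36 conjugation enzymes and 21 NRF2 targets (all genes, 0.159%). Their medians were 0.05, 0.04 and 0.09. Without canola pool 3 none was called either (all genes, 0.0398%), and the medians were 0.03, -0.03 and -0.04. Of the 21 NRF2 targets, 7 were negative with that pool and 15 without it.

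Inflammatory and stress genes gave no calls (all genes, 0.159%). Of 23 acute phase genes, 8 were higher without overlap (all genes, 4.67%) and the median was 0.11. Leaving out canola pool 3 gave 10 (all genes, 9.21%) and a median of 0.14. Saa1, serum amyloid A, was at log2 levels of 11.57, 11.20 and 11.26 on canola and of 12.53, 11.92 and 13.14 on fish/fungal oil (1.18, adjusted p = 0.655; 1.14 without canola pool 3). Orm3 was at 0.73 (0.639) and Saa3 at 0.89 (0.731). Atf5, a transcription factor of the integrated stress response, had the smallest p of its list (-0.81, adjusted p = 0.153, limma) and its lowest value. Of the 18 tested members of that list 6 were negative, the median was 0.04, and the highest value was that of Asns, 1.43. The lists for glucose metabolism, unfolded protein response, interferon response, class II presentation, circadian clock, cell cycle, bile transporters, triglyceride synthesis and sex-biased liver genes held no called gene (all genes, 0.159%). Their medians were from -0.14 to 0.08, and from -0.25 to 0.03 without canola pool 3. The lowest median without that pool was that of the female-biased genes, which was 0.08 with it. Of 12 female-biased genes 6 were negative with the pool and 9 without it, and of 18 cell cycle genes 13 and 16. With all pools the largest value in these lists was 2.75 for the male-biased gene Moxd1 (adjusted p = 0.852, named after its value was seen). Serpina12, a hepatocyte serpin with the smallest p of its list, was at -1.27 (adjusted p = 0.299), or -0.87 without canola pool 3.

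None of the marker lists for the cell types of liver held a called gene (all genes, 0.159%). In RNA from whole liver, fewer cells of a type and less RNA per cell cannot be told apart. Of 20 Kupffer cell and macrophage markers 19 were positive and 1 was negative (negative over all genes, 51.1%). The median was 0.31 and no marker had pools free of overlap. Without canola pool 3, 16 were positive and 4 negative (negative over all genes, 49.0%), and the median was 0.29. In control livers the median of these markers was 0.34, and 5 were higher and 1 lower without overlap (all genes, 6.27% and 4.75%). Lyz2, lysozyme, was at log2 levels of 9.67, 10.11 and 9.69 on canola and of 10.96, 10.51 and 9.87 on fish/fungal oil (0.62, adjusted p = 0.528). Cd5l, secreted by Kupffer cells, was at 0.58 (0.634). Fish/fungal pools 1 and 2 were high and pool 3 was within the canola range in Lyz2. The medians of the stellate cell, endothelial and hepatocyte lists were 0.02, 0.00 and -0.06. Of the 5 tested neutrophil markers 2 were negative and the median was 0.13. Their largest value was that of S100a9, 0.70 (adjusted p = 0.914, limma). Adipocyte, muscle, pancreatic and red cell markers had medians between -0.16 and 0.01.

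The same oils were compared in control livers, on 6 other pools. There 33 genes were called (0.262%), 28 lower (0.223%) and 5 higher (0.0398%). All 20 genes called in the knockout had the same sign in controls, and 15 of the 20 (15 of the 33) were called in both. Fads1 was at -2.99 in controls, Mfsd2a at -3.41, Apoa4 at -2.78, Fads2 at -2.30, Elovl5 at -2.64, Elovl2 at -0.92 and Apoc2 at -0.59, each called. Over the 4 lipid synthesis lists the control median was -0.65, 8 genes were called lower and 34 were lower without overlap (all genes, 4.75%). Genes called in controls and not in the knockout included Rdh11, a retinal reductase (-1.99 in controls, -0.98 in the knockout), and Vegfb, a vascular growth factor (-0.77 and -0.24), both named after their values were seen.

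A test of the difference between genotypes, the interaction of knockout and oil, called no gene in limma (0%). At an unadjusted p below 0.05 there were 279 genes (2.22%), fewer than the 629 expected by chance, and the smallest adjusted p was 0.308. It belonged to Gpc1, a cell-surface heparan sulfate proteoglycan. Gpc1 had log2 levels of 7.19, 7.11 and 7.09 on canola and of 6.23, 6.29 and 6.51 on fish/fungal oil in controls, and of 6.44, 6.23 and 6.64 against 6.52, 6.44 and 6.58 in the knockout. It was lower on fish/fungal oil in controls, where the pools did not overlap, and in the knockout the pools overlapped. The interaction was 0.87 (SE 0.15), with an adjusted p of 0.0726 without canola pool 3.

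Lpl was at log2 levels of 9.56, 9.42 and 9.30 on canola and of 9.74, 9.70 and 9.43 on fish/fungal oil in controls. These pools overlapped, and the control change was 0.20 (adjusted p = 0.971). The interaction was 0.93 (SE 0.21, unadjusted p = 0.000461) and did not pass adjustment (adjusted p = 1.00, limma). Elovl5 and Elovl2 had interactions of 0.87 and 0.35 with unadjusted p of 0.0454 and 0.0332, and were not called.

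Obp2a, an odorant-binding lipocalin, was at 5.38, 4.73 and 6.27 on canola and at 8.52, 8.92 and 7.90 on fish/fungal oil in controls (2.99), and at 4.50, 4.71 and 5.84 against 5.72, 5.71 and 5.85 in the knockout (0.74). Its interaction of -2.24 had an unadjusted p of 0.000248. The probe set was above the array median in 11 of the 18 arrays, and the canola levels lay at or near background, so that the sizes of these differences are not exact. Wfdc12, a small protease inhibitor, was at 0.99 in controls and at -0.07 in the knockout, an interaction of -1.06 that was not called with all pools. Control fish/fungal pool 2, at 6.33, lay between the others of its group (7.21 and 7.28) and the control canola pools (at most 6.07). Without it the interaction of Wfdc12 was -1.36 (adjusted p = 0.00101) and was the only call. The other genes of the 10 smallest p were Susd1, Rlf, the pyrophosphatase Ppa1, the replication factor Gins1, Poc5 and the cathepsin Ctsz, with interactions from -0.70 to 0.65.

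The lard-fed knockout pools place both oils, in comparisons that share the fish/fungal or the canola arrays with the values above. Fish/fungal oil against lard gave 58 called genes (0.461%), 5 higher and 53 lower, and canola oil against lard gave none (607 at an unadjusted p below 0.05, smallest adjusted p 0.419, limma). Fads1 was at log2 levels of 11.68, 11.08 and 12.01 on lard, within reach of the canola pools and far above the fish/fungal pools. Its change against lard was -3.37 for fish/fungal oil and -0.37 for canola. Mfsd2a was at -3.41 and 0.01, Apoa4 at -2.60 and 0.03, Apoc2 at -0.68 and 0.08, Fdps at -2.55 and -0.66, and Idi1 at -2.06 for fish/fungal oil against lard. Lpl on lard was at 10.94, 11.01 and 10.60. Its lard mean of 10.85 lay between the canola mean (10.40) and the fish/fungal mean (11.53). The lard and canola pools overlapped, since lard pool 3 was below canola pool 1, at 10.70. Against lard it was at 0.68 for fish/fungal oil (adjusted p = 0.0566) and at -0.45 for canola oil (adjusted p = 0.839), neither called.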

How the data were processed

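RNA from whole liver, pooled from 3 mice a pool, was measured on Affymetrix mouse genome arrays, 3 pools in each of 6 groups. The deposited values are log2 expression, normalised by the authors with RMA per the submitters' processing notes; the version and background settings are not given in the sources used here. RMA compresses low signals and normalises all arrays together. Of 45101 probe sets, 34945 had 1 gene symbol in the platform annotation, 932 had several and 9160 were not listed. For each of 18193 genes the probe set of highest mean was used, and 12578 genes above the array median in at least 3 arrays were tested.

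Group means over all 18 arrays were fitted with limma 3.58.1 (R 4.3.3; mean-variance trend, Benjamini-Hochberg adjustment, threshold 0.05), and the procedure was tested on simulated data. Nothing in the labels says more of the pools than that they came from different mice of a group, so p-values measure the spread between pools. No pair of arrays held identical values, and arrays of 1 group correlated at 0.988 to 0.996. Genes named were the called genes with pools that do not overlap (15 largest each way), up to 6 called or otherwise 3 members of each of 40 lists, the 10 smallest interaction p-values and genes that depend on canola pool 3. Genome neighbours of called genes, Hacd1, Hmgcs1 and the genes that place canola pool 3 were added after their values were seen, as were others where the text says so. The comparison, the lists and their members were chosen with earlier results of these data known. Alternatives covered normalisation, filter, probe sets, model, pool numbers as a block and each pool left out. Promoter windows and gene names are from RefSeq.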

Additional observations from a re-analysis of the deposited data

How the results depend on the processing

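Apoa4, Apoc2, Fads1 and Mfsd2a were called under all 10 alternatives and without each of the 6 pools in turn; Fabp2, Fads2 and Paqr9 under all 10 alternatives, and Lpl under 9 (highest adjusted p 0.0508) and without each pool. Pter was called under 2 of the 10, Fam25c under 4, Fdps and Pstpip2 under 6, Elovl2, Pnkd and H2-Q10 under 7 (H2-Q10 of 9), Adam11 and Car14 under 8 (Car14 of 9), and Elovl5, Stard4 and Tm7sf2 under 9. The mean of all probe sets, dim ones included, gave -1.89 for Fads1, -0.98 for Fdps and -0.30 for Pnkd. No called gene changed sign. Among named genes that were not called, signs turned with the mean of all probe sets in Prss2 (0.0053), Cela3b (0.0142) and Gins1 (0.00637) and without probe sets prone to cross-hybridisation in Ccne1 (-0.13). They turned without 1 pool in H2-Ab1 (-0.49 to 0.0345), Apob (-0.53 to 0.0393), Col5a2 (-0.000995 to 0.363), Pck1 (-0.301 to 0.0339), Prss2 (-0.142 to 0.0565), Cela3b (-0.102 to 0.0108), Gpc1 (-0.0272 to 0.177), Wfdc12 (-0.143 to 0.00917) and Ctsz (-0.0523 to 0.091). Leaving out 1 pool at a time gave 1 to 3 genes higher and 4 to 27 lower in the knockout, 2 to 6 higher and 16 to 20 lower in controls, and 0 to 1 lower and 0 higher for the interaction. Fitting only the groups compared, with fewer arrays behind the spread, gave 1 higher and 9 lower in the knockout. Centring each array gave 44 lower in controls and array weights gave 15 higher there; the cause was not tested. With the pool number as a replicate block the knockout counts were 2 higher and 11 lower and the interaction had 0; same-numbered knockout pools correlated at 0.088, 0.085 and 0.367 in their deviations, so the numbers were not taken as pairs, and not every pool correlated best with its own number. Signal near background limits Mfsd2a and Cyp39a1 on fish/fungal oil, Obp2a on canola oil, and Nebl in controls and canola knockout pool 3.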
